A study of Homo sapiens with 54 samples.

Results

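The 10 genes described here encode contractile proteins of heart and smooth muscle and a pair of receptors found on vascular and perivascular cells. They were chosen by name, with earlier results of these data known. Counts of these genes set beside shares of all probes are therefore a description and not a test of the set. TNNT2, MYH6, MYL7 and ACTC1 represent the cardiac sarcomere, ACTA2, TAGLN, CNN1 and MYL9 the smooth muscle contractile apparatus, and PDGFRB and KDR the receptors. All 10 were on the array, among 19720 named genes, through 11 of the 42405 probes analysed, because TAGLN had 2 probes. RNA was hybridised to Agilent 1-colour arrays from 27 cultures of human pluripotent stem cells, with 2 arrays per culture (54 arrays), and each culture entered once, as the mean of its 2 arrays. The question was how these muscle and vascular genes stood when bFGF, the usual growth factor of these cells, was replaced with FGFC, a chimeric protein joined from FGF1 and FGF2, or was left out.

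H1, a human embryonic stem cell (ESC) line, was grown in E8 Medium, a defined medium that held TGF-beta 1 in every arm. In each of 3 experiments a pre-culture was followed by 4 days with 100 ng/mL bFGF, with 100 ng/mL FGFC or without FGF, which gave 3 cultures in each of these 4 groups. The long-term cultures came from 5 systems with a pre-culture, a bFGF culture and an FGFC culture each: H1 in E8 Medium for 30 days at 100 ng/mL (its pre-culture was that of experiment 1), H1 in mouse embryonic fibroblast conditioned medium (MEF-CM, on Matrigel without feeder cells) for 41 days at 5 ng/mL, the ESC line KhES-1 on mouse embryonic fibroblast (MEF) feeders for 30 days at 5 ng/mL, the induced pluripotent line 201B7 on MEF feeders for 50 days at 10 ng/mL, and the induced pluripotent line 253G1 in E8 Medium for 36 days at 100 ng/mL. A single further H1 culture was labelled as differentiated, and its labels gave neither medium nor passage. The methods describe differentiation through embryoid bodies in medium without FGF followed by attached growth. The 3 cultures of a long-term system followed from one another, and the study describes the 3 experiments of 4 days as independent. The p-values measure the spread between these cultures. For H1 in MEF-CM against E8 Medium that spread was pooled over the cultures of all 5 long-term systems, and each medium held 1 series of related cultures.

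Cardiac and smooth muscle descend from mesoderm, and both tissues build their contractile machinery from related families of actins, myosins and regulatory proteins. Many of these genes carry CArG boxes, the DNA element bound by serum response factor (SRF), which also answers to the state of the actin cytoskeleton, and for that reason ACTA2, TAGLN, CNN1 and MYL9 can be expressed outside muscle. KDR, the main receptor for VEGF-A, marks endothelial and early mesodermal cells but is also expressed by undifferentiated human ESCs.

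The RefSeq table of promoters (assembly GRCh38.p14) held 11 windows for 8 of the 10 genes, each 300 bases long from 250 before to 50 after a start. TAGLN and MYL9 had no entry. The CArG box of SRF was found in 2 of the 8 genes, MYL7 (61 bases before the start) and 1 of 3 windows of ACTC1 (109 bases before the start), that is, in 2 of the 11 windows against 454 of all 35116 (1.29%). Only exact matches to the CArG consensus were counted, on these 300 bases, so an element with a mismatch, or one outside the window, is not marked. The element CATTCC, the core of the MCAT element bound by TEAD factors, was searched on both strands and was found in 5 of the 8 genes (TNNT2, MYH6, MYL7, ACTC1 and ACTA2), in 5 of the 11 windows against 14.0% of all windows. The windows below belong to 5 genes with large differences in the comparisons that follow, plus the ACTC1 window, which is shown because it holds a CArG box like that of MYL7 although ACTC1 stayed near background. Capitals mark exact CArG boxes and CATTCC on either strand, and the KDR window held neither.
KDR, GRCh38.p14 chr4:55125546-55125845, minus strand: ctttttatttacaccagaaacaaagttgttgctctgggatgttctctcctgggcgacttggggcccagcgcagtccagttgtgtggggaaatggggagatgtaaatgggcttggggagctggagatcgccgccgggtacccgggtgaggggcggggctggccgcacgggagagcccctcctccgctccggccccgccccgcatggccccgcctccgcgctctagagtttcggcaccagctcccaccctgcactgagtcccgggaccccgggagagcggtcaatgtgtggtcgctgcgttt
TNNT2, GRCh38.p14 chr1:201377631-201377930, minus strand: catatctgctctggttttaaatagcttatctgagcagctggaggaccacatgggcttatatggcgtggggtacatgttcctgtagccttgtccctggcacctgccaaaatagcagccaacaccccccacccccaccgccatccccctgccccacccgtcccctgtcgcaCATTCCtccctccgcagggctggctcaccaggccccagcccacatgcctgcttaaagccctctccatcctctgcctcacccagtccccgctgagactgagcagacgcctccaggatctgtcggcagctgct
ACTA2, GRCh38.p14 chr10:88952724-88953023, minus strand: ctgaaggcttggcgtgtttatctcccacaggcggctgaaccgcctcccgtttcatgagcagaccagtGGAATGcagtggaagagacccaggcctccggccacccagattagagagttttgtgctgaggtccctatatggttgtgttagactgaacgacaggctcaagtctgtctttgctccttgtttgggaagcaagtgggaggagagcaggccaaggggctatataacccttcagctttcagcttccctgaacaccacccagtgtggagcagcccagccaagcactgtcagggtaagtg
MYH6, GRCh38.p14 chr14:23408224-23408523, minus strand: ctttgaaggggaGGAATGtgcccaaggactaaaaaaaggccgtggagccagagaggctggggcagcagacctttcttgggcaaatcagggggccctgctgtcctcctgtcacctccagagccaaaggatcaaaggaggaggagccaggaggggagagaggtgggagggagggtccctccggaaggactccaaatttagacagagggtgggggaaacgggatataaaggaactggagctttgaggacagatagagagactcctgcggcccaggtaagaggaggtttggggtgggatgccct
MYL7, GRCh38.p14 chr7:44141283-44141582, minus strand: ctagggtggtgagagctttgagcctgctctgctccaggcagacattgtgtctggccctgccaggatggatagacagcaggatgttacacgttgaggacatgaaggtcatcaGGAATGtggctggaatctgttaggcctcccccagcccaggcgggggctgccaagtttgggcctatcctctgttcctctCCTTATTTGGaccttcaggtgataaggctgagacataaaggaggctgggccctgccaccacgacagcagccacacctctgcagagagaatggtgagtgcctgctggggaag
ACTC1, GRCh38.p14 chr15:34795500-34795799, minus strand: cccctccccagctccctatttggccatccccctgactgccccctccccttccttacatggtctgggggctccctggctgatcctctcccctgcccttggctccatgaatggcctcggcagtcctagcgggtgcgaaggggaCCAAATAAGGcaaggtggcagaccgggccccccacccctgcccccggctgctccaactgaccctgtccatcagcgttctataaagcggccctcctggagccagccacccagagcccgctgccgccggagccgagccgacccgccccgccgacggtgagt

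Levels are given as log2 of the processed probe signal relative to the 75th percentile of the same array, so that 0 is the brightness of a probe at that percentile. Levels of different probes are not comparable. TNNT2, MYL7, TAGLN, CNN1, MYL9, PDGFRB and KDR were well above the local background on all 54 arrays and ACTA2 on 53. MYH6 was well above background on 21 arrays and ACTC1 on 6, so most of their values are at the detection limit. The 8 markers of undifferentiated cells were well above background on every array of every group. The share of probes well above background was between 56.0% and 79.2% per array, and the 75th percentile signal was between 504 and 913 on 52 arrays and between 182 and 234 on the 2 arrays of the 201B7 pre-culture, which stood apart. Where leaving out that culture ended an overlap named here or moved a value by more than 1.5 times, the result is given without it as well. In bulk RNA, fewer cells of a type and less RNA per cell cannot be told apart.

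**Figure D1:**
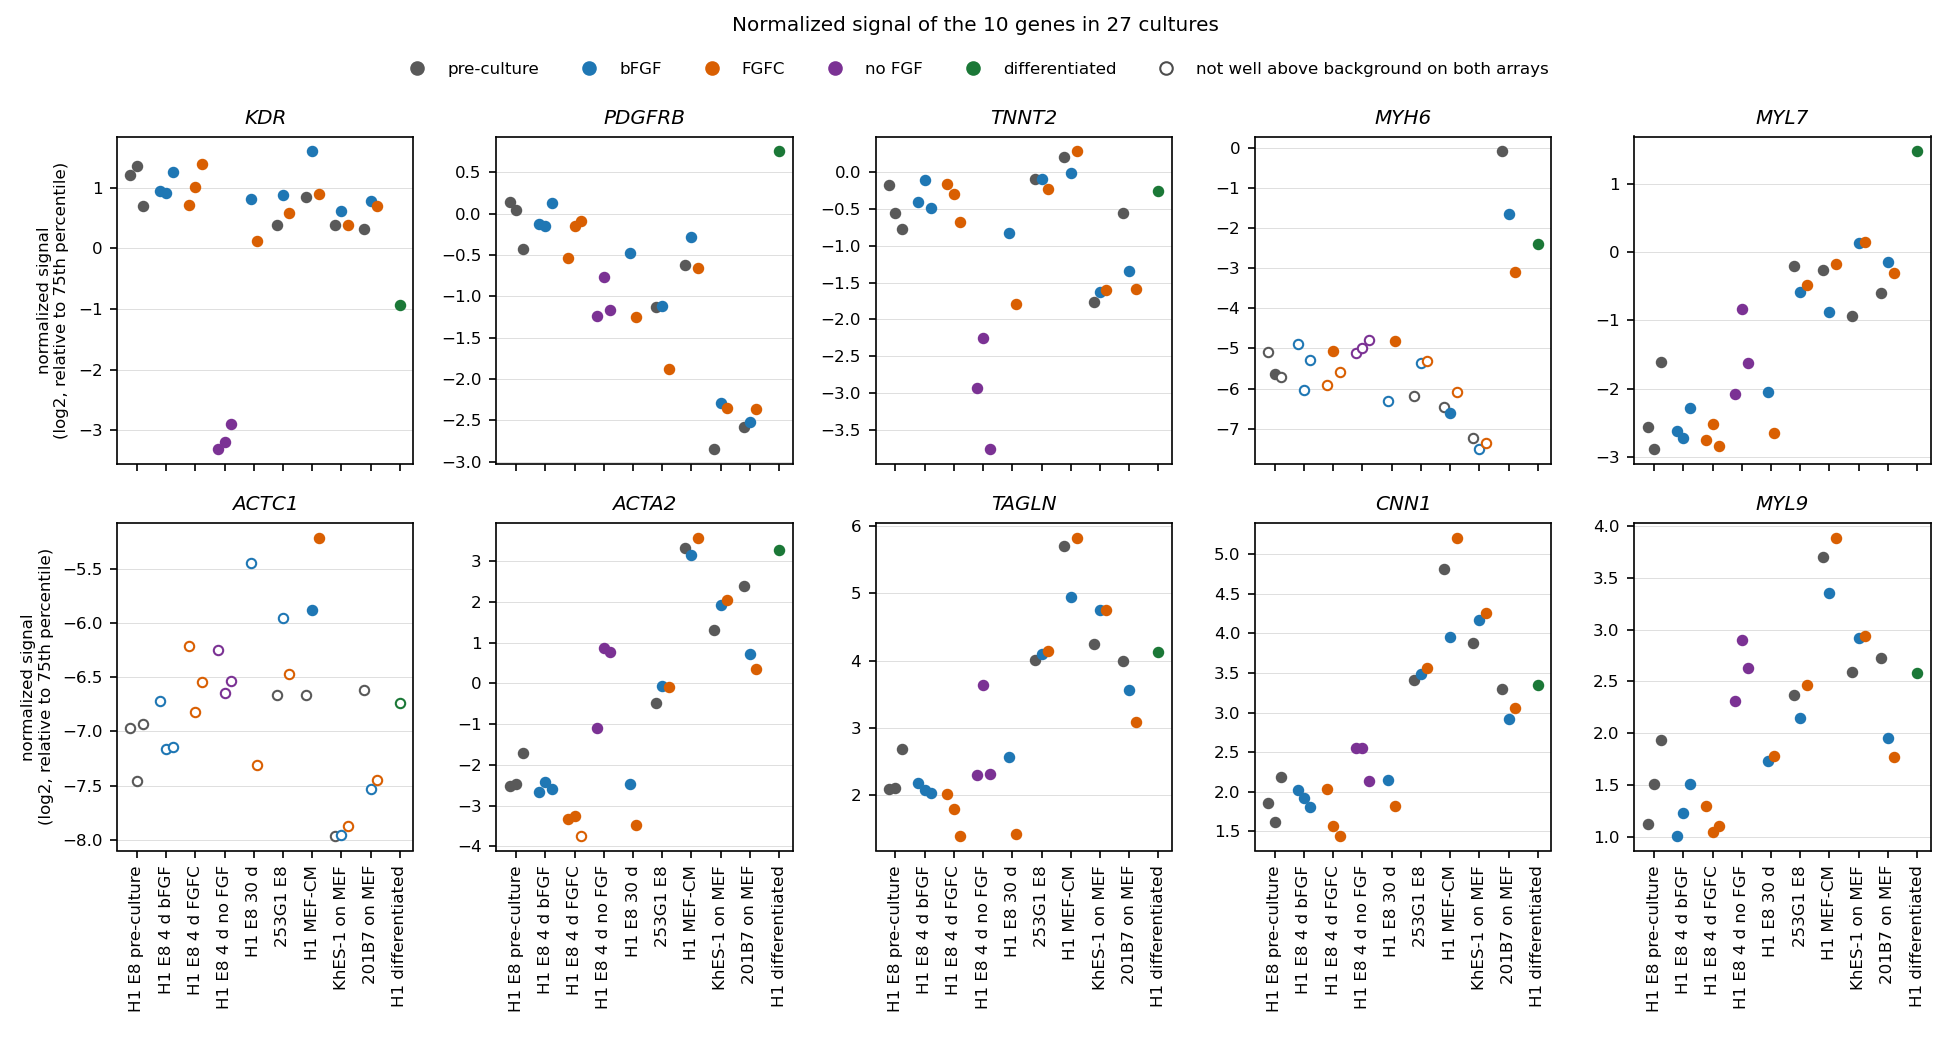
Level of each of the 10 genes (log2 relative to the 75th percentile of the array, vertical axes) in the 27 cultures, by group along the horizontal axis and coloured by growth factor, with open points for cultures not well above background on both arrays. KDR and TNNT2 were lowest in the 3 cultures without FGF (KDR at -3.31 to -2.90), and MYH6 was highest in 201B7 and the differentiated culture.

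After 4 days without FGF, KDR, TNNT2 and PDGFRB fell and ACTA2 and MYL9 rose relative to the bFGF arm, whereas the other 5 genes did not pass the test. KDR was 18.1-fold lower and TNNT2 6.27-fold lower, and ACTA2 was 6.69-fold higher. By limma with Benjamini-Hochberg adjustment over all probes (adjusted p threshold 0.05), 5 of the 10 genes were past the threshold, 2 higher and 3 lower, where 12.7% of all probes were (5.54% higher and 7.19% lower). At an unadjusted p under 0.05 the counts were 8 of 10 against 25.3% of probes. The median difference was 0.51 over the 10 genes and 0.01 over all probes.

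Of the receptors, KDR had levels of 0.95, 0.91 and 1.26 with bFGF in experiments 1, 2 and 3, against -3.31, -3.18 and -2.90 without FGF. The pre-cultures (1.21, 1.37 and 0.71) and the FGFC cultures (0.71, 1.01 and 1.38) lay with the bFGF cultures, and the groups with and without FGF were far from overlapping. The difference between no FGF and bFGF was -4.17 on the log2 scale (SE 0.23, adjusted p = 1.62e-06 by limma), and it was -4.26, -4.10 and -4.16 within the 3 experiments. The arms of experiments 1 and 3 each shared a slide, so those differences were within a slide.

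PDGFRB, the receptor for PDGF-B on pericytes and smooth muscle cells, moved far less. Its levels were -0.13, -0.15 and 0.13 with bFGF and -1.24, -0.76 and -1.17 without FGF. The groups did not overlap, and the difference was -1.01 (SE 0.21, 2.01-fold lower, adjusted p = 0.00931 by limma). The call was lost in each fit without 1 experiment, which had fewer cultures. The adjusted p was 0.0672, 0.0611 and 0.183 by limma without experiment 1, 2 and 3, respectively.

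Among the cardiac genes, TNNT2, which encodes the tropomyosin-binding subunit of cardiac troponin, had levels of -0.41, -0.10 and -0.48 with bFGF and -2.93, -2.25 and -3.76 without FGF. The 3 cultures without FGF held the lowest TNNT2 levels of all 27. The difference was -2.65 (SE 0.33, adjusted p = 0.00037 by limma), and it stayed past the threshold whichever experiment was left out, as did that of KDR. MYL7, the regulatory light chain of atrial myosin, went the other way, with -2.62, -2.71 and -2.28 under bFGF and -2.08, -0.83 and -1.63 without FGF. These groups did not overlap, but the difference of 1.03 (SE 0.36) did not pass (adjusted p = 0.0887 by limma), and experiment 2 contributed most of it with 1.89 against 0.54 and 0.66. The adjusted p of MYL7 was 0.039 after normexp background correction and 0.0424 with dim probes left out. MYH6, the alpha heavy chain of cardiac myosin, was well above background on 1 of 6 bFGF arrays and on none of the 6 arrays without FGF. ACTC1, the actin of heart muscle, was on none of those 12 arrays.

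Of the smooth muscle genes, ACTA2 and MYL9 passed the test and TAGLN and CNN1 did not. ACTA2, the smooth muscle actin that is stained as a mesoderm marker in differentiated cultures, had levels of -2.68, -2.43 and -2.59 with bFGF and -1.09, 0.86 and 0.76 without FGF. The level in experiment 1 without FGF was the lowest of the latter 3 and still above every pre-culture (-2.52, -2.47 and -1.71). The difference was 2.74 (SE 0.44, adjusted p = 0.00192 by limma), or 1.59, 3.30 and 3.34 by experiment, and the adjusted p was 0.0585 without experiment 2 and 0.0794 without experiment 3. MYL9, the regulatory light chain of smooth muscle and non-muscle myosin, had 1.01, 1.23 and 1.51 with bFGF and 2.30, 2.90 and 2.63 without FGF. No culture without FGF overlapped those with bFGF, and the difference was 1.36 (SE 0.24, 2.57-fold higher, adjusted p = 0.00312 by limma), with an adjusted p of 0.0993 without experiment 2 and 0.0512 without experiment 3.

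TAGLN, the actin-binding protein transgelin, had 2.18, 2.09 and 2.03 with bFGF and 2.30, 3.64 and 2.31 without FGF. Only experiment 2 showed more than a small step, and the difference of 0.65 (SE 0.34) did not pass (adjusted p = 0.261 by limma). The other TAGLN probe gave 0.70 (adjusted p = 0.229 by limma). CNN1, the actin-binding protein calponin, had 2.02, 1.92 and 1.81 with bFGF and 2.55, 2.55 and 2.13 without FGF, and its difference of 0.49 did not pass either (adjusted p = 0.176 by limma). In all, 9 of the 10 genes had groups that did not overlap, 6 higher and 3 lower without FGF, where 42.3% of all probes did not overlap. The 6 include ACTC1, which was above background on none of these arrays.

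**Figure D2:**
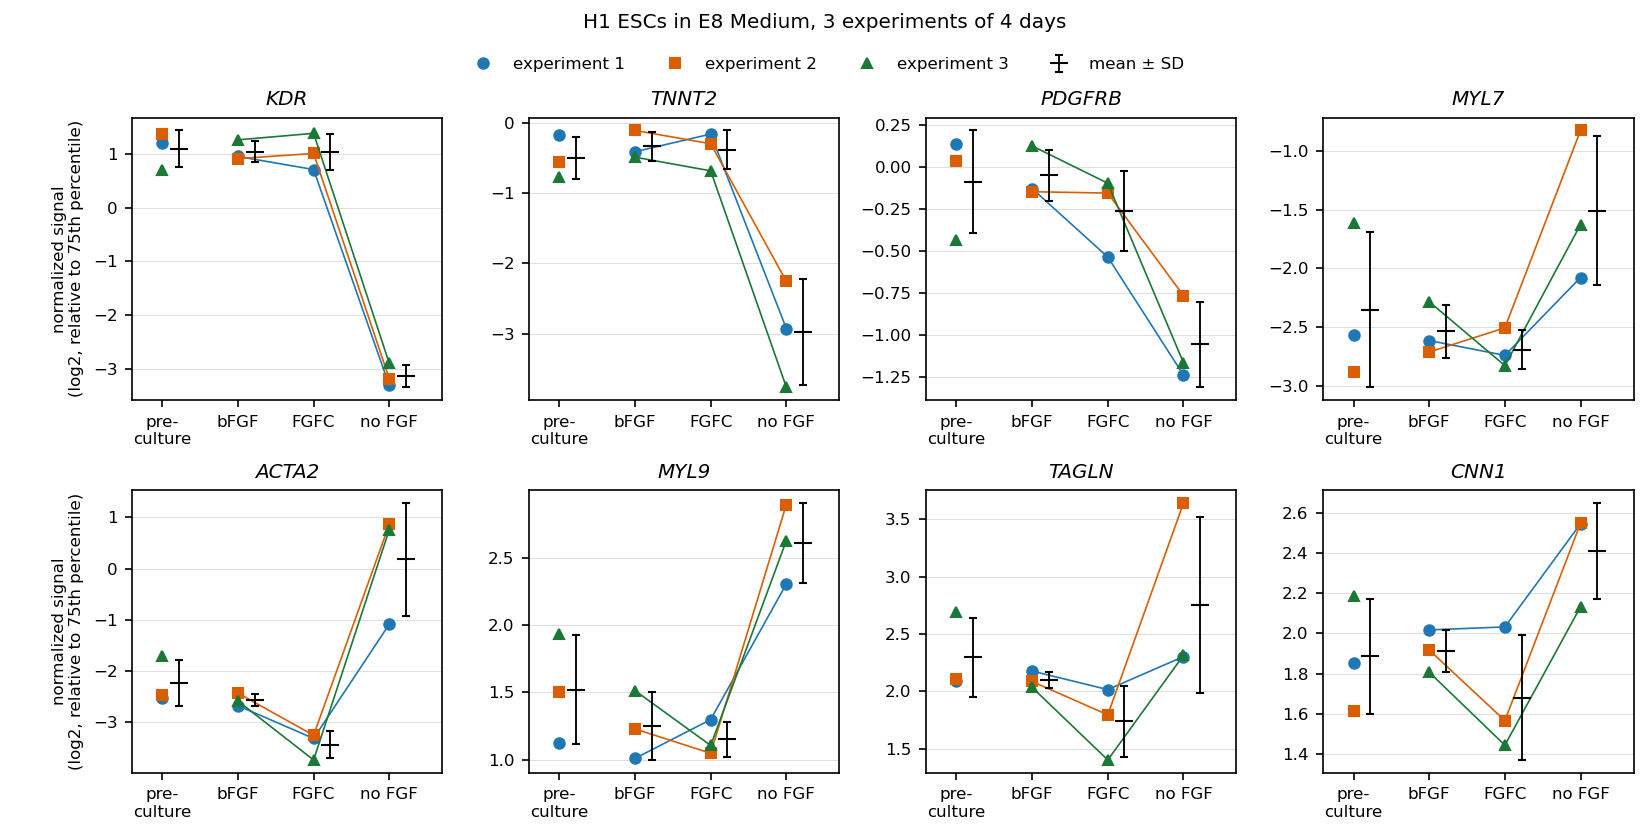
Levels (log2 relative to the 75th percentile of the array, vertical axes) of the 8 genes well above background in nearly every culture, in the 4 groups of the 4-day series; each symbol is 1 culture, lines join the arms of an experiment, and black bars are the mean with the SD of 3 cultures. KDR averaged 1.04 with bFGF and -3.13 without FGF, and ACTA2 averaged -2.56 and 0.18.

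The comparison of no FGF with FGFC used the same 3 cultures without FGF, so it was not independent of the one above. The same 5 genes passed the test, where 10.8% of all probes did (4.72% higher and 6.07% lower), and at an unadjusted p under 0.05 the counts were 8 of 10 against 22.8% of probes. KDR differed by -4.17 (18.0-fold lower, adjusted p = 1.87e-06 by limma), TNNT2 by -2.60 (adjusted p = 0.000474) and PDGFRB by -0.80 (adjusted p = 0.0346). ACTA2 was higher without FGF by 3.61 (12.3-fold, adjusted p = 0.000374 by limma), with a mean of -3.44 in the FGFC arm and -2.56 in the bFGF arm. MYL9 was higher by 1.46 (adjusted p = 0.00231 by limma). CNN1 (0.73, adjusted p = 0.0532 by limma), MYL7 (1.18, adjusted p = 0.0582) and TAGLN (1.01, adjusted p = 0.0853) lay just outside the threshold. After normexp correction 8 of the 10 genes passed, where 12.6% of all probes did, and after quantile normalization 8 passed, where 13.4% did. The count was also 8 with dim probes left out and with the slide as a random block, for which the share of all probes is not given here. The call of PDGFRB was lost without any 1 of the experiments (adjusted p = 0.0877, 0.178 and 0.374 without experiment 1, 2 and 3), and that of MYL9 without experiment 2 (0.105) or 3 (0.0666).

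Genes of the same pathways, from lists of which none held the other contractile members, gave the setting. Of 16 ligands and receptors of the PDGF and VEGF families, which include KDR and PDGFRB, 2 were higher and 6 lower without FGF than with bFGF. The ligands PDGFB (-2.89, adjusted p = 0.00177 by limma) and PDGFA (-1.99, adjusted p = 0.000467) fell with PDGFRB, and FLT1, another VEGF receptor, fell with KDR (-1.42, adjusted p = 0.00159). PDGFRA, the other PDGF receptor, rose by 2.86 (adjusted p = 0.000159 by limma), opposite to PDGFRB, and NRP1, a co-receptor for VEGF, rose by 1.62 (adjusted p = 0.000589). The median difference over the 16 genes was -0.46.

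Of 21 further genes of the cardiac sarcomere, calcium handling and cardiac hormones, 5 were higher and 2 lower without FGF than with bFGF, with a median of 0.31. TTN, the giant sarcomere protein titin, had the largest fall in the list, from 0.71 ± 0.12 (SD, n = 3) with bFGF to -5.63 ± 0.39 without FGF (adjusted p = 1.72e-07 by limma), where 1 of 6 arrays was well above background. MYL3, the ventricular and slow skeletal essential light chain, was well above background on 6 of 6 arrays without FGF and on none of the bFGF arrays, and was at least 3.80-fold higher (adjusted p = 0.00858 by limma). NPPB, the natriuretic hormone BNP, was higher by 1.60 (adjusted p = 0.0489 by limma) and MYL2, the ventricular regulatory light chain, by 0.98 (adjusted p = 0.0426). HCN4, the pacemaker channel, fell by 0.86 (adjusted p = 0.00649 by limma). Of 11 cardiac transcription factors only ISL1 was past the threshold, higher by 1.36 (adjusted p = 0.0101 by limma). It was well above background on only 1 of 6 arrays without FGF and on none with bFGF, so its fold is not bounded. The median was 0.34.

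Of 20 further smooth muscle and SRF target genes, 2 were higher and 2 lower without FGF than with bFGF, with a median of 0.09. PDLIM7, a cytoskeletal scaffold protein, rose by 1.22 (adjusted p = 0.000817 by limma) and TPM2, beta-tropomyosin, by 0.92 (adjusted p = 0.00547), whereas SYNPO2, an actin-bundling protein, fell by 1.38 (adjusted p = 0.000171) and TGFB1I1, a focal adhesion protein, by 0.65 (adjusted p = 0.0117). ACTG2, the enteric smooth muscle actin, had a difference of 0.39 (adjusted p = 0.40 by limma). Of 12 mesoderm transcription factors 2 were higher and 1 lower, with MSX2, a target of BMP signalling, at least 7.53-fold higher (adjusted p = 7.14e-05 by limma) and MESP2 lower by 1.37 (adjusted p = 0.00296), and TBXT, the other higher one, above background on no array of either group.

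Markers of other cell types were read beside these genes. Of 14 endothelial markers 1 was higher and 3 lower without FGF, and their summed level (log2 of the summed signals) was 3.29 to 3.38 against 2.63 to 2.78 with bFGF. The higher one was VWF, von Willebrand factor, by 4.04 (adjusted p = 4.62e-07 by limma), while FLT1, TIE1 and ENG fell. For 12 skeletal muscle genes, 1 higher and 1 lower, the sums were 4.76 to 5.20 against 4.02 to 4.42, and the higher one was ACTA1, the skeletal actin, by 2.28 (adjusted p = 0.00066 by limma). Of 13 fibroblast markers 2 were higher and 1 lower (5.27 to 6.03 against 5.96 to 6.07), of 10 amnion and trophoblast markers 4 were higher and 1 lower (2.72 to 3.22 against 2.81 to 3.09), and of the 8 markers of undifferentiated cells 1 was higher and 3 lower (8.09 to 8.56 against 8.72 to 9.01). Their part in the differences of the 10 genes was not tested.

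Replacing bFGF with FGFC for 4 days moved none of the 10 genes past the threshold, where 0.0% of all probes passed (0 of 42405), and at an unadjusted p under 0.05 by limma 0 of the 10 genes passed against 2.98% of probes. KDR differed by -0.01 (SE 0.23) and TNNT2 by -0.04 (SE 0.33), the 2 genes that fell most without FGF. ACTA2 had the largest difference of the 10, at -0.87 (SE 0.44, unadjusted p = 0.0745, adjusted p = 0.9999 by limma). Its levels with FGFC were -3.32, -3.25 and -3.74, all below the 3 bFGF cultures, and the differences by experiment were -0.64, -0.82 and -1.15. TAGLN also had groups that did not overlap (2.02, 1.80 and 1.40 with FGFC, a difference of -0.36), whereas its other probe overlapped. Such groups were found for 5.72% of all probes. The remaining differences were between -0.23 and 0.49, and none of them can be read as showing that the 2 growth factors act alike.

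In the 5 long-term systems FGFC and bFGF were compared within each system, and again none of the 10 genes passed (0.0% of probes did). At an unadjusted p under 0.05, 1 of the 10 passed against 5.98% of probes. This gene was KDR, with differences of -0.69 in E8 Medium and -0.70 in MEF-CM for H1, -0.24 for KhES-1, -0.10 for 201B7 and -0.30 for 253G1. KDR was thus lower with FGFC in 5 of 5 systems, a pattern shared by 8.5% of probes that kept 1 direction throughout, with a mean of -0.40 (SE 0.12, adjusted p = 0.701 by limma). For the other 9 genes the difference took both signs across the systems. ACTA2 differed by -1.01 in E8 Medium and 0.43 in MEF-CM for H1, 0.12 for KhES-1, -0.37 for 201B7 and -0.04 for 253G1. CNN1 differed by 1.26 in MEF-CM and by -0.33 to 0.14 in the other 4 systems, and TNNT2 by -0.97 in H1 in E8 Medium and by -0.24 to 0.29 elsewhere. Whether the 4-day and the long-term differences were unequal was tested by exact two-sided permutation of 3 experiments and 5 systems. The smallest of 10 p-values was 0.0714, for CNN1 (0.357 after adjustment). With so few arrangements no gene could have passed alone after adjustment, and experiments of 1 line were exchanged with systems of several lines. The test therefore cannot decide the question.

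**Figure D3:**
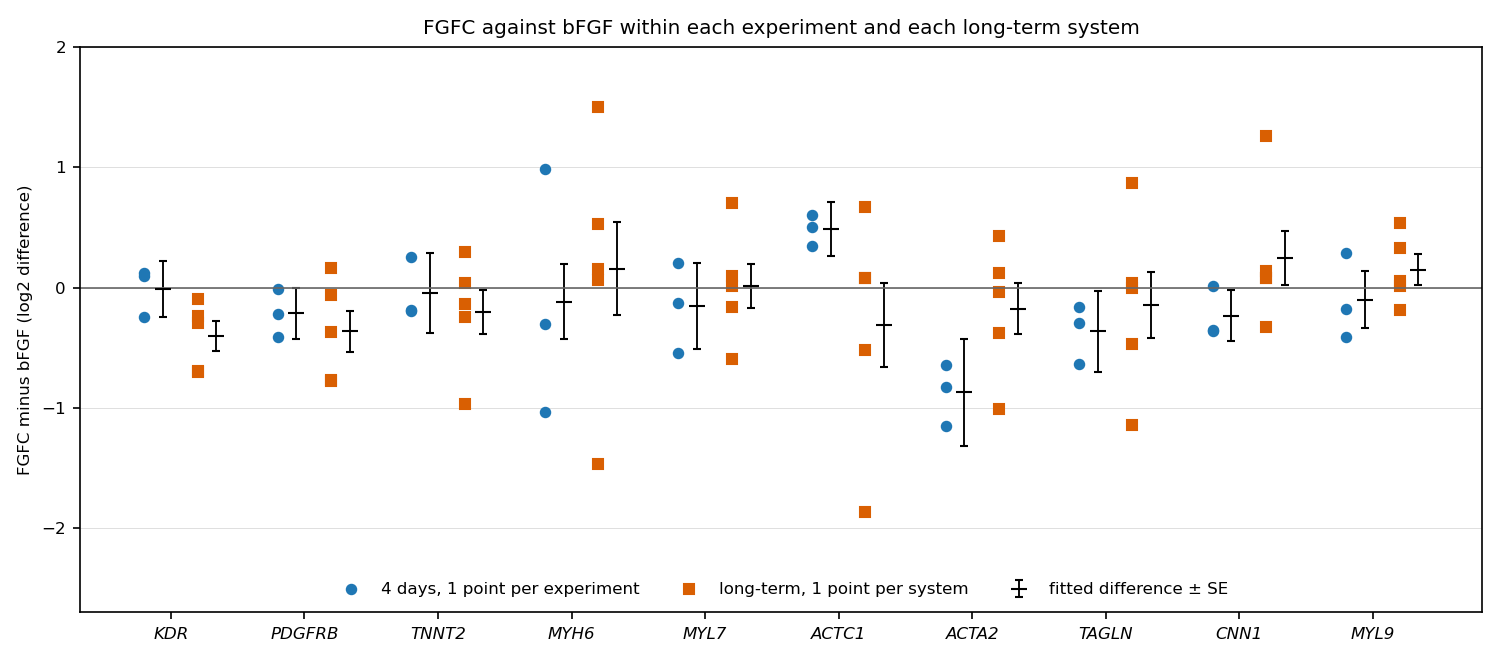
Difference in level, FGFC minus bFGF (log2, vertical axis), for each of the 10 genes; each circle is 1 of the 3 experiments of 4 days, each square 1 of the 5 long-term systems, and black bars are the fitted difference with its SE. KDR lay below 0 in 5 of 5 long-term systems but averaged -0.01 in the 4-day experiments, and no gene passed the test in either set.

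In H1, all 4 smooth muscle genes, MYL7 and TNNT2 were higher in MEF-CM than in E8 Medium. The 3 cultures in MEF-CM had ACTA2 levels of 3.31, 3.14 and 3.57 (pre-culture, bFGF, FGFC) against -2.52, -2.47 and -3.48 in E8 Medium. The groups lay far apart, and the difference was 6.16 (SE 0.43, 71.7-fold higher, adjusted p = 3.37e-06 by limma), the largest for any of the 10 genes in a tested comparison. TAGLN was 11.0-fold higher (5.71, 4.95 and 5.83 against 2.09, 2.57 and 1.43, difference 3.47, adjusted p = 1.65e-05 by limma) and the other TAGLN probe gave 3.46. CNN1 was 6.57-fold higher (difference 2.72, adjusted p = 2.23e-05 by limma), and MYL9 was 4.29-fold higher (difference 2.10, adjusted p = 0.000138).

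Of the cardiac genes, MYL7 rose by 1.98 (-0.26, -0.88 and -0.17 against -2.56, -2.05 and -2.64, adjusted p = 0.000468 by limma). TNNT2 rose by 1.09 (0.21, -0.01 and 0.28 against -0.17, -0.83 and -1.79, adjusted p = 0.0261 by limma), with no overlap of the groups, but the difference was 0.60 and not past the threshold without the FGFC cultures (adjusted p = 0.26) nor without the bFGF cultures (adjusted p = 0.165). The receptors did not pass, with KDR at 0.40 (adjusted p = 0.308) and PDGFRB at 0.01 (adjusted p = 0.987 by limma). ACTC1 was well above background on 4 of 6 MEF-CM arrays and on 1 of 6 arrays of the E8 system, with a difference of 0.65 that did not pass. In all, 6 of the 10 genes were higher and 0 lower, where 7.8% of all probes were higher and 20.8% lower (28.6% in all). At an unadjusted p under 0.05 by limma the count was again 6 against 39.2% of probes, and 6 genes had groups that did not overlap, against 43.7%. After quantile normalization 51.1% of all calls were higher and after normexp correction 42.5%, against 27.3% here. Under each, 6 genes were past the threshold, all higher, where 15.7% of all probes were called after quantile normalization and 8.88% after normexp correction. The median difference over all probes was -0.15 (-0.04 after quantile normalization), against 1.54 over the 10 genes.

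Of 20 further smooth muscle and SRF target genes, 10 were higher and 1 lower in MEF-CM, with ACTG2 higher by 5.34 (adjusted p = 4.29e-06 by limma). Of 21 cardiac genes 5 were higher and 6 lower. The lower ones include PLN, SLN, CASQ2 and CSRP3, which were well above background on no array of either group. Of 13 fibroblast markers 7 were higher and 2 lower, and their summed level was 7.43 to 7.88 in MEF-CM and 5.90 to 6.09 in E8 Medium. VIM, vimentin, was higher by 3.48 (adjusted p = 6.57e-05 by limma), TWIST1 by 2.43 (adjusted p = 0.0122), COL1A1 by 2.36 (adjusted p = 0.000179), PDGFRA by 1.75 (adjusted p = 0.00715) and COL1A2 by 1.26 (adjusted p = 0.0156), each on 6 of 6 MEF-CM arrays. The other fibroblast genes COL3A1, DCN and LUM were well above background on 0 of 6. For the skeletal muscle genes, 3 higher and 5 lower, the sums were 6.88 to 7.27 against 4.04 to 4.21, and ACTA1 was higher by 6.75 (adjusted p = 6.22e-06 by limma). The part of these markers in the result was not tested, and medium, concentration of growth factor and slide cannot be told apart. The cultures of each medium followed from one another, so the p-values do not measure a spread between independent series.

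Across systems ACTA2 ran in the order H1 in MEF-CM (3.34 ± 0.22, SD, n = 3), KhES-1 (1.76 ± 0.38), 201B7 (1.15 ± 1.08), 253G1 (-0.21 ± 0.23) and H1 in E8 Medium (-2.82 ± 0.57). Only KhES-1 and 201B7 overlapped among neighbours in this order, and through the 201B7 pre-culture alone (2.38). The other 2 cultures of 201B7 (0.73 and 0.36, mean 0.54) lay below all of KhES-1 (1.32 to 2.04). TAGLN ran from 5.50 ± 0.47 in MEF-CM through 4.58 ± 0.29 in KhES-1, 4.09 ± 0.07 in 253G1 and 3.55 ± 0.45 in 201B7 to 2.03 ± 0.58 in H1 in E8 Medium, with no overlap between neighbours for this probe. The other TAGLN probe had 201B7 (2.31 to 3.89) overlapping 253G1 and KhES-1, and 253G1 (3.02 to 3.20) overlapping KhES-1 (3.06 to 3.77). The means of CNN1 and MYL9 had the same order as those of TAGLN, with overlap between H1 in MEF-CM and KhES-1 for CNN1 and between 201B7 and KhES-1, 253G1 and H1 in E8 Medium for MYL9. Without the 201B7 pre-culture, 201B7 overlapped neither 253G1 nor KhES-1 for MYL9 or for the other TAGLN probe. MYL7, ACTA2, TAGLN and CNN1 were higher in all 9 cultures of the MEF-based systems than in all 11 H1 cultures in E8 Medium with bFGF or FGFC, as were 1.85% of all probes, and the count was again 4 without the 201B7 pre-culture. The 3 cultures of 253G1, which was in E8 Medium too, lay above the same 11 cultures for these 4 genes and for MYL9 (8.02% of probes did). Cell line and medium cannot be told apart outside H1.

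PDGFRB had another order. Its levels were -0.52 ± 0.21 in H1 in MEF-CM, -0.53 ± 0.70 for H1 cultured in E8 Medium, -1.38 ± 0.44 in 253G1 and -2.49 in both KhES-1 (SD 0.31) and 201B7 (SD 0.11). The 6 cultures of the last 2 lines, both kept on MEF feeders, were below all 21 other cultures, which held for 0.797% of probes and was looked for after the values were seen. KDR stood at 1.12 ± 0.42, 0.71 ± 0.55, 0.62 ± 0.25, 0.60 ± 0.25 and 0.47 ± 0.14 in H1 in MEF-CM, H1 in E8 Medium, 253G1, 201B7 and KhES-1, and neighbours in this order overlapped. Among the 5 systems the mean of TNNT2 was lowest in KhES-1 (-1.67 ± 0.09) and 201B7 (-1.16 ± 0.54), but both overlapped H1 in E8 Medium (-0.93 ± 0.82).

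MYH6 stood out in a single line. In 201B7 its levels were -0.07 in the pre-culture, -1.63 with bFGF and -3.10 with FGFC, and it was well above background on 6 of 6 arrays. All 3 cultures were above the 23 others, the differentiated culture left aside, a position held by 2.01% of probes. Against KhES-1, also on feeders, MYH6 was at least 34.5-fold higher in 201B7 (above background on 0 of 6 KhES-1 arrays), and against the 11 H1 cultures in E8 Medium, on 8 of whose 22 arrays it was above background, at least 12.2-fold higher. Without the 201B7 pre-culture these bounds were 20.3-fold and 7.16-fold. MYL7, its partner in atrial myosin, was at -0.60, -0.14 and -0.30 in the same cultures, within the range of KhES-1 (-0.93 to 0.15). ACTC1 was above background on none of the 201B7 arrays. The summed level of the fibroblast markers was 6.68 to 8.50 in 201B7 and 6.16 to 6.56 in KhES-1, with DCN at 4.85 to 7.08 in 201B7 and -4.41 to -2.09 in KhES-1, while COL3A1 and LUM were on no array of either line. The part of these markers in the MYH6 level was not tested.

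The differentiated H1 culture was a single culture, so its values have no replicate check and no test. Its ACTA2 level of 3.27 was 45.5-fold above the mean of the 3 pre-cultures (-2.23 ± 0.45) and close to the MEF-CM cultures. MYL7, at 1.47, was 14.2-fold higher than the pre-cultures and above all 26 other cultures, as was PDGFRB at 0.75, and 13.5% of probes had that position. MYH6, at -2.39, was at least 7.96-fold higher, and it was above background on 3 of 6 pre-culture arrays. TAGLN was 3.56-fold higher, CNN1 2.75-fold and MYL9 2.09-fold, but all 3 were below their MEF-CM levels. TNNT2 (-0.25) differed from the pre-cultures by 0.24, ACTC1 was not well above background, and KDR (-0.94) was 4.10-fold lower, between the cultures without FGF and all 23 cultures with FGF. In all, 6 of the 10 genes were at least 2-fold higher, where 14.3% of probes were, and 1 was at least 2-fold lower, where 15.4% were (7 of 10 against 29.7% in either direction).

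Compared instead with the 3 cultures left without FGF for 4 days, the differentiated culture had KDR higher by 2.19, TNNT2 by 2.73 and ACTA2 by 3.09, while MYL9 differed by -0.03. Genes of the wider lists are given for the contrast with the pre-cultures. Of 11 cardiac transcription factors 7 were at least 2-fold higher in the differentiated culture than in the pre-cultures and 0 lower, with GATA6, a factor of heart and endoderm, at least 110.3-fold and HAND2, a factor of heart and limb, at least 46.5-fold higher. Of 21 cardiac genes 9 were higher and 4 lower, with SLN, the calcium pump regulator sarcolipin, at least 412.5-fold higher, and TTN at -2.97 relative to the pre-cultures on the log2 scale. These counts of higher genes include probes at the detection limit. NPPA was well above background on no array of either group. TBX5 and CASQ2 were well above background on 1 of the 2 differentiated arrays and on no pre-culture array. Of 20 smooth muscle and SRF target genes 7 were higher and 1 lower, with ACTG2 8.62-fold higher, and of 16 PDGF and VEGF genes 8 were higher and 4 lower. The fibroblast markers (12 higher, 1 lower of 13, summed level 8.59) and the amnion and trophoblast markers (10 of 10 higher, 6.75) were also higher, and 7 of the 8 markers of undifferentiated cells were at least 2-fold lower (4.97), although all 8 stayed above background. Their part in the levels of the 10 genes was not tested.

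**Figure D4:**
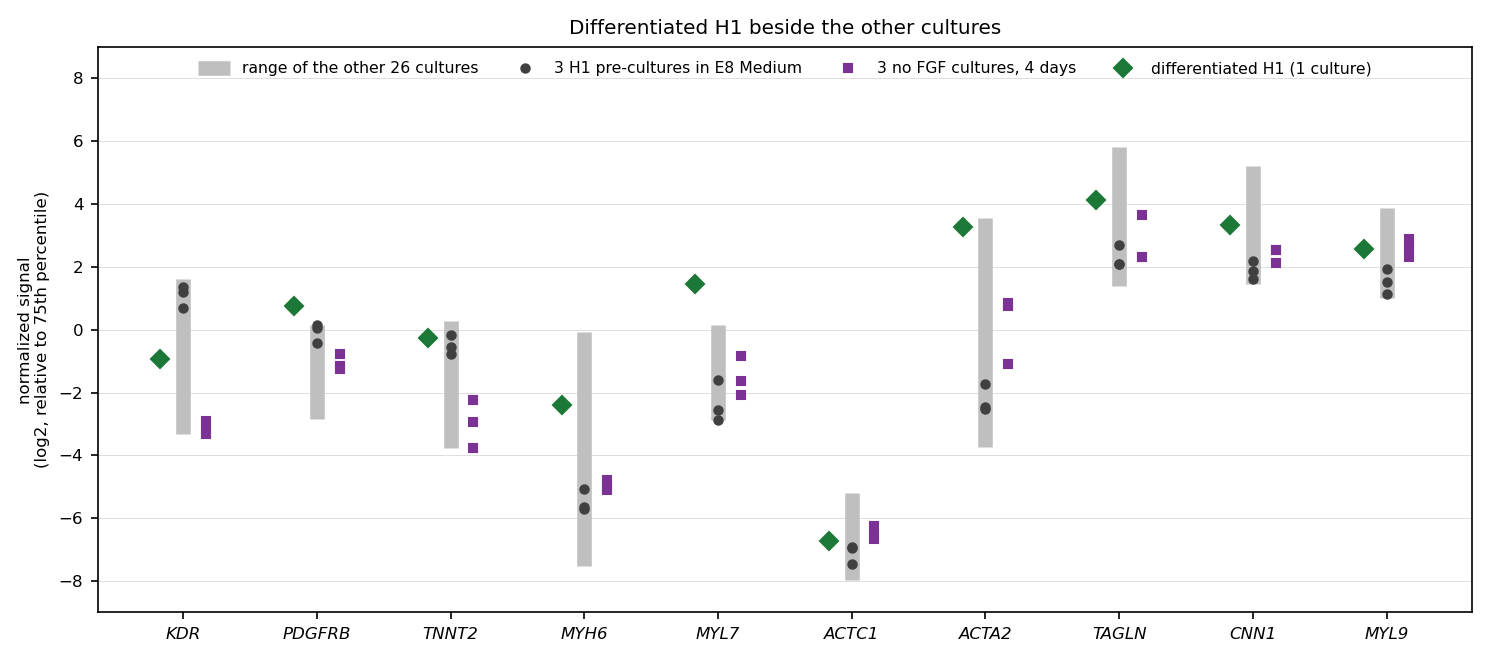
Levels (log2 relative to the 75th percentile of the array, vertical axis) of the 10 genes in the differentiated H1 culture (diamonds), the 3 pre-cultures (circles) and the 3 cultures without FGF (squares), with grey bars for the range of the other 26 cultures. MYL7 (1.47) and PDGFRB (0.75) were above that range, and KDR (-0.94) lay between the pre-cultures and the cultures without FGF.

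Across the 26 cultures other than the differentiated one the smooth muscle genes varied together, which is given as a description since cultures of a system follow from one another. The correlation (Pearson's r) was 0.97 between TAGLN and CNN1, 0.93 between ACTA2 and MYL9, 0.92 between ACTA2 and TAGLN and 0.90 between ACTA2 and CNN1, and MYL7 followed ACTA2 with 0.87. Within the 11 H1 cultures in E8 Medium with FGF, a far narrower range, the same pairs gave 0.77, 0.42, 0.89, 0.61 and 0.65. TNNT2 tracked KDR with 0.80 over the 26 cultures and 0.62 within the 11. PDGFRB and MYL7 gave -0.70 over the 26 cultures and -0.13 within the 11.

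Among 15104 genes compared over the same 26 cultures, the nearest pattern to ACTA2 was that of ACTA1 (r = 0.98), followed by EDN1, the peptide endothelin-1 (0.95). The likeness to ACTA1 did not extend to the differentiated culture, where ACTA1 was at -0.48 and 1.53 below the pre-cultures on the log2 scale while ACTA2 was at 3.27, and r over all 27 cultures was 0.84. CNN1 was nearest to ACTG2 (0.97), TAGLN to ANXA1, the phospholipid-binding protein annexin A1 (0.97), and MYL9 to WEE1, a kinase of the cell cycle (0.92). KDR was nearest to TLR2, an innate immune receptor (0.97), PDGFRB to TMEM120B (0.96), and TNNT2 to FAM110C (0.96). MYH6 had TPBGL and MYL7 had SMS, which encodes spermine synthase, as the nearest (0.93 and 0.91). ACTC1, near background in most cultures, was nearest to ANKRD2 (0.85).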

How the data were processed

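RNA was measured on Agilent 1-colour arrays. The deposited intensity values came from Agilent Feature Extraction 10.7.3.1, per the file headers, whose grid names hg19; the authors had background-subtracted them, and the feature flags and probe names were read with them. The processed signals were floored at 1, taken to log2 and scaled to each array's 75th percentile after control spots (4259 of 62976) and outlier spots (266 to 623 per array) were removed. Spots of a probe and the 2 arrays of a culture were averaged. No spot was saturated. A series value table was used as an alternative. Its values were identical to the processed signals, so this alternative differed from the main setting only in keeping the outlier spots. Genes were named through the RefSeq accession of each probe, which left 16690 of the 42405 probes without a name. Probes of the named genes that carry another kind of accession are therefore not included. Probe sequences were not used here, so cross-hybridisation between actins or myosins was not checked.

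The model used limma 3.58.1 in R 4.3.3 (lmFit, eBayes) on all 42405 probes, with Benjamini-Hochberg adjustment over all of them and a threshold of 0.05. TAGLN was read from the probe with the higher mean signal over the 54 arrays. A fold against a group in which a probe was above background on no array was given as a bound, as were the folds of MYH6. Members and gene lists were chosen with earlier results of these data known; all 10 members were named, with up to 3 genes per list and direction that differed most (no FGF against bFGF past the threshold, and the differentiated culture) and, per member, the 2 genes with the highest r. Other genes, such as further actins, were named after their values were seen. On simulated no FGF and bFGF data, 132 of 200 changed probes were found (66%, and 85.1% of those changed at least 4-fold), with 7 unchanged probes called. The simulation changed far fewer probes than were called in the data and drew independent noise, so these rates hold for that setting only. Same-numbered samples of the 4-day arms deviated together weakly (r of 0.0769 to 0.321 over 9 pairs, 8 of them over 0.1, the exception being FGFC and bFGF of experiment 2). The main 4-day fits did not use this pairing, and the experiment as a block was run as an alternative. Experiment 2's pre-culture had another passage than its 4-day cultures, and for 5 arrays of experiment 3 the passage labels disagreed, where the title was used. The number of arrays limits the precision.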

Additional observations from a re-analysis of the deposited data

How the results depend on the processing

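Of the 5 genes past the threshold for no FGF against bFGF, between 2 and 4 passed when 1 experiment was left out (2 without experiment 2 or 3), and against FGFC between 3 and 4 did (3 without experiment 2 or 3). The latter count was 8 after normexp background correction, after quantile normalization, with dim probes left out and with the slide as a random block. The share of all probes called rose too, from 10.8% to 12.6% after normexp and 13.4% after quantile normalization. With the experiment as a replicate block, 6 genes passed for no FGF against bFGF, the addition being ACTC1 (adjusted p = 0.0495 by limma), which was above background on none of those arrays, and the block changed no other call. No gene passed for FGFC against bFGF, in either set, under any alternative run. In MEF-CM against E8 Medium 5 to 7 genes passed, and 7 to 8 differed 2-fold in the differentiated culture. Leaving out the 201B7 pre-culture, an alternative chosen after seeing the data, gave 4 genes again for the MEF-based systems and moved the log2 bound of MYH6 in 201B7 from 3.60 to 2.84 against H1 in E8 Medium and from 5.11 to 4.34 against KhES-1. The cause of these changes was not tested. Signal over background limited MYH6 and ACTC1, and single cultures per system limited the long-term comparison.

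Reversals of sign, all of values that were not past the threshold or had no test, were as follows. For FGFC against bFGF at 4 days, KDR was 0.0037 after quantile normalization and 0.0804 from the first arrays, and MYH6 was 0.0123 after normexp, 0.26 with the higher floor and 0.11 from the second arrays. Without 1 experiment the ranges were -0.0729 to 0.11 for KDR, -0.67 to 0.34 for MYH6, -0.34 to 0.0399 for MYL7, -0.29 to 0.0537 for MYL9 and -0.19 to 0.0312 for TNNT2. In the long-term systems MYH6 was -0.11 after normexp and -0.10 with the floor, and MYL7 was -0.0052 after normexp and -0.0219 from the second arrays. Without 1 system the ranges were -0.33 to 0.0342 for ACTA2, -0.55 to 0.0795 for ACTC1, -0.0086 to 0.39 for CNN1, -0.18 to 0.56 for MYH6, -0.16 to 0.16 for MYL7 and -0.39 to 0.11 for TAGLN. In MEF-CM against E8 Medium ACTC1 was -0.23 after normexp and -0.41 with the floor (-0.0679 to 1.20 without 1 pair of cultures), and PDGFRB was -0.0152 after normexp, -0.0208 after quantile normalization and -0.26 against 11 cultures in E8 Medium (-0.29 to 0.40 without 1 pair). For the differentiated culture the sign changed only with another reference, which is a different contrast and not another processing. Against the 3 cultures without FGF in place of the pre-cultures, KDR was 2.19 and MYL9 -0.0258. For no FGF against FGFC, ACTC1 was -0.0808 from the second arrays and -0.0156 to 0.0859 without 1 experiment.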
